A study of Mus musculus with 9 samples.

Results

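Cisplatin-treated and vehicle-treated mouse lumbar dorsal root ganglia were compared across all genes, in 6 of the 9 libraries of the series. The members were the 3 cisplatin and 3 vehicle count files, and 17348 of the 38926 listed genes had enough reads to be tested. The mice were male C57BL/6, wild type and 8 to 10 weeks old. They received vehicle, or cisplatin to a cumulative 40 µg by injection into the paw, and ganglia L3, L4 and L5 of the treated side were taken whole. Each library came from RNA pooled from 4 animals, so the spread between libraries is a spread between pools and not between single mice. No time between the last dose and dissection is given in the labels. The oxaliplatin group (3 pools of the same sex, age, strain and dose) entered the estimate of the spread and a short comparison at the end.

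A dorsal root ganglion contains sensory neuron cell bodies, each wrapped by satellite glia, together with the myelinating Schwann cells of their axons, vessels, fibroblasts, a connective-tissue capsule and resident macrophages. Cisplatin is a platinum drug that forms crosslinks in DNA. It reaches these ganglia through their permeable vessels, and sensory neuropathy is a known effect of treatment. A whole-ganglion measurement adds the RNA of all these cells together: fewer cells of a type and less RNA per cell cannot be told apart.

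The labelled tissue was checked on 20 general neuron markers, all of which were detected. Their summed level was 21459, 21547 and 22687 CPM (reads of a gene scaled to a common library total with TMM factors) in the vehicle libraries and 19385, 20344 and 22028 CPM in the cisplatin libraries. Gene reads ranged from 22819185 to 32022672 in vehicle and from 31971613 to 38168902 in cisplatin, so that 3 counts in a library, taken as the detection floor, equal 0.0723 to 0.188 CPM. Unique reads that fell outside annotated genes made up 26.8, 47.7 and 26.2% in vehicle and 18.7, 18.6 and 19.1% in cisplatin. The vehicle libraries were all above the cisplatin libraries in this share (means 33.6% ± 12.3 and 18.8% ± 0.250, SD, n = 3 each, two-sided exact permutation p = 0.1, the smallest that 3 against 3 libraries allow, and 0.5 after adjustment over 5 library properties). Vehicle library 2 stood apart. Reads aligned to multiple places made up 51.0% of its recorded reads, its 10 most abundant genes took 32.9% of its gene reads and its TMM scaling factor was 0.700, against 0.960 to 1.10 in the other 8 libraries. The predicted gene Gm26924 alone held 14.8% of its gene reads. For this reason every comparison was run with all 9 libraries and again with vehicle library 2 left out and the scaling, filter and fit redone, and a gene "held" when it was called in both fits in the same direction.

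Cisplatin libraries differed from vehicle libraries in a large share of the tested genes, in both directions and mostly by small amounts. By edgeR's quasi-likelihood test with Benjamini-Hochberg adjustment, which gives every adjusted p below, 6715 of 17348 genes (38.7%) were called at an adjusted p under 0.05: 2744 (15.8%) higher and 3971 (22.9%) lower in cisplatin. Without vehicle library 2, 7309 of 17711 genes (41.3%) were called, 3401 (19.2%) higher and 3908 (22.1%) lower. Of the genes tested in the first fit, 6146 (35.4%) held, 2569 (14.8%) higher and 3577 (20.6%) lower, and 0 were called in opposite directions. With a further library left out of both fits the count of genes that held higher fell to 1377 (vehicle 1), 1528 (vehicle 3) or 1638 (cisplatin 2), and the count that held lower ranged from 2432 to 3580. A further 175 higher and 394 lower calls were lost when vehicle library 2 was left out, and 816 higher and 283 lower calls were gained. Those lost included Lars2, Gm15564 and Gm26924, genes chosen here after their values were seen. Lars2 had a log2 fold change of -6.95 with vehicle library 2 and 0.79 without it, Gm15564 -6.62 and 1.41, and Gm26924 -6.98 and 0.15. Most held changes were small: the median log2 fold change was 0.34 among genes that held higher and -0.45 among those that held lower, and 293 (1.69%) and 335 (1.93%) genes held with at least a 2-fold change. Calls of at least 2-fold with all 9 libraries numbered 306 higher and 361 lower, and the former fell to 197 without vehicle library 3. In 2357 of the 2569 and 3467 of the 3577 held genes the 3 cisplatin values lay on 1 side of the 3 vehicle values, which was so for 8322 (48%) of all genes tested, 3689 (21.3%) higher and 4633 (26.7%) lower.

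**Figure D1:**
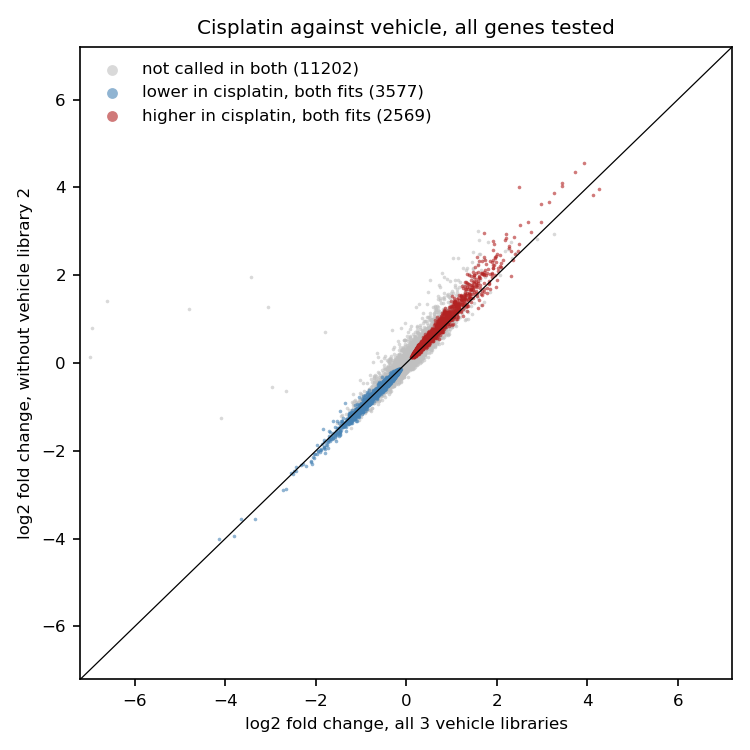
Each point is 1 of 17348 genes, placed by its log2 fold change (cisplatin against vehicle) with all 3 vehicle libraries on the horizontal axis and without vehicle library 2 on the vertical axis, and the line marks equal values. The 2569 genes that held higher (red) and 3577 that held lower (blue) lie along the line, while a few genes not called in both fits (grey) lie far to the left of it.

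Further settings were tried because the direction of small changes depends on the scaling. TMM scaling places the median gene near 0 (0.00, or 0.02 without vehicle library 2). Scaling by library totals alone moved the median of all genes to 0.29 (0.16 without vehicle library 2). All 2569 genes that held higher also did so under library totals, but only 875 of the 3577 that held lower did. After each library's trend with exon length and GC content was removed, 1380 of the 2569 and 2233 of the 3577 still held in their direction, and 86 of the latter held in the opposite one. Genes that held in all of these fits numbered 1380 (7.95%) higher and 819 (4.72%) lower. They are called here genes that held under every scaling, a set defined after the data were seen. The name covers TMM, library totals and trend removal only. Another scaling method, RLE, gave 2659 genes held higher and 3558 lower and is not part of it. Library totals shift all genes upward and removed none of the rises, so for rises the set rests on trend removal alone. Its counts of rises and falls are therefore not comparable. Genes that held lower took 41.8, 27.5 and 40.3% of the reads of tested genes in vehicle and 29.8, 30.4 and 31.5% in cisplatin, with vehicle library 2 below all others. Genes that held higher took 9.67, 7.60 and 10.0% in vehicle and 14.3, 14.0 and 12.8% in cisplatin. These are shares within each library, which the scaling does not change, and Gm26924 alone held 14.8% of the gene reads of vehicle library 2.

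The 12 largest increases included genes of blood-forming and granulocyte lineages. Prg2 (chromosome 2, 84980461 to 84983632, GRCm38), which encodes the major basic protein of eosinophil granules, was at 0.562, 1.38 and 0.423 CPM in vehicle libraries 1 to 3 and 9.69, 5.88 and 3.08 CPM in cisplatin libraries 1 to 3 (log2 fold change 3.15, SE 0.60, adjusted p = 0.00167). For Prg2 cisplatin library 1 was the highest of all. The groups do not overlap in any of the 12, since that was a condition of choosing them. S100a8, a calcium-binding protein that neutrophils carry in bulk, was at 11.4, 23.6 and 9.98 CPM in vehicle and 69.5, 59.4 and 38.5 CPM in cisplatin (log2 fold change 1.97, SE 0.37, adjusted p = 0.0016). Cxcr2, a chemokine receptor of neutrophils, was at 0.337, 0.689 and 0.358 CPM in vehicle and 1.69, 2.17 and 1.22 CPM in cisplatin (log2 fold change 1.98, SE 0.37, adjusted p = 0.00137). In both genes vehicle library 2 was the highest of the vehicle libraries. Of the other genes among the 12 largest increases, Itgb2l (2.27), Ifitm6 (2.20) and Ly6c2 (2.0) are myeloid genes. Trim10 (2.03), Alas2 (1.97), the erythroid enzyme that starts haem synthesis, and the globins Hbb-bt (2.03), Hba-a1 (1.92) and Hba-a2 (1.90) belong to the red cell lineage, and Hist1h3b (1.98) encodes a replication histone. Each of the 12 held under every scaling. Apart from S100a8, none of them exceeded 31.3 CPM in any library, the level of Hbb-bt in cisplatin library 2.

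The 12 largest decreases, chosen under the same condition, included genes of neurons and of actin assembly. Zfhx2 (chromosome 14, 55060262 to 55092324), a homeobox transcription factor linked to pain sensing, was at 33.4, 27.5 and 35.6 CPM in vehicle and 7.94, 6.99 and 8.19 CPM in cisplatin (log2 fold change -2.07, SE 0.12, adjusted p = 5.32e-06). Pclo (chromosome 5, 14514918 to 14863459), which encodes the presynaptic scaffold piccolo, was at 457, 363 and 392 CPM in vehicle and 90.6, 87.9 and 120.2 CPM in cisplatin (log2 fold change -2.02, SE 0.20, adjusted p = 3.58e-05). Syn1, which encodes the vesicle phosphoprotein synapsin I, was at 207, 183 and 186 CPM in vehicle and 53, 53 and 68.2 CPM in cisplatin (log2 fold change -1.73, SE 0.11, adjusted p = 5.38e-06). In these 3 genes the lowest vehicle library exceeded the highest cisplatin library by more than 2-fold. Wasf1 was at 40.6, 38 and 34.5 CPM in vehicle and 10, 10.1 and 12 CPM in cisplatin (log2 fold change -1.81, SE 0.10, adjusted p = 5.32e-06). It encodes a WAVE protein that drives branched actin assembly, and 2 other actin regulators of the growing cell edge, Wipf3 (-1.78) and Raph1 (-1.76), were also among the 12 largest decreases. The remaining ones were Dgkk (-1.96), a diacylglycerol kinase, Nr4a3 (-1.95), an immediate early nuclear receptor, Clip3 (-1.94), Scrt2 (-1.66), a neuronal zinc finger repressor, the non-coding Meg3 (-1.73) and Snhg11 (-1.70), a small nucleolar RNA host gene that the annotation used here lists as protein-coding. Each of these 12 also held under every scaling. Zfhx2 has an annotated antisense partner (Gm20687), as do Pclo, Syn1, Raph1 and Meg3. The strand setting of the counting is not given, so reads of such pairs cannot be told apart. The same limit applies to Alas2 among the increases, which has Apex2 as an antisense neighbour.

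**Figure D2:**
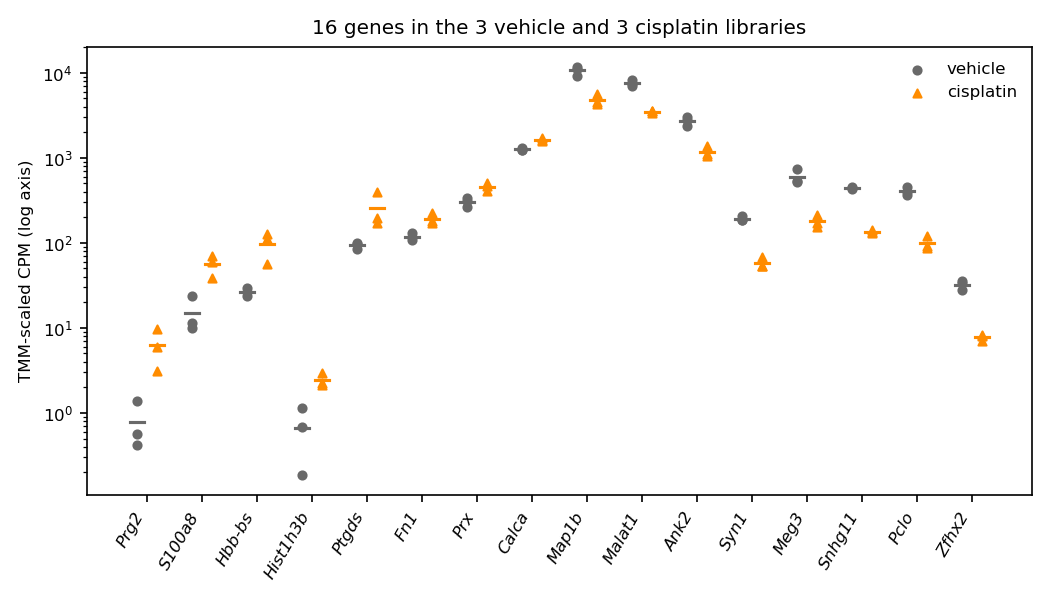
TMM-scaled CPM on a log axis for 16 genes in the 3 vehicle (grey circles) and 3 cisplatin (orange triangles) libraries, with a bar at each group's mean. For each gene the 3 cisplatin values lie on 1 side of the 3 vehicle values, from Prg2 (0.423 to 1.38 against 3.08 to 9.69 CPM) to Zfhx2 (27.5 to 35.6 against 6.99 to 8.19 CPM). This was a condition of choosing all of these genes but Calca.

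The 8 most abundant genes with at least a 1.5-fold held change were named in each direction, again only where the groups did not overlap. Among those that fell, Map1b, a microtubule-associated protein of axons, was the most abundant, at 11544, 9236 and 11059 CPM in vehicle and 4298, 4559 and 5609.9 CPM in cisplatin (log2 fold change -1.14, SE 0.16, adjusted p = 0.000269). Dync1h1, the heavy chain of the dynein motor, was at 3688, 3049.5 and 3391 CPM in vehicle and 1330.4, 1387 and 1738 CPM in cisplatin (log2 fold change -1.18, SE 0.16, adjusted p = 0.000178). Ank2, the ankyrin that anchors membrane proteins along axons, was at 2978, 2377 and 2782 CPM in vehicle and 1045, 1106 and 1364 CPM in cisplatin (log2 fold change -1.21, SE 0.16, adjusted p = 0.00016). All 3 were lowest in library 1 among the cisplatin libraries and in library 2 among the vehicle libraries. Prune2 (-1.11), Dst (-0.76) and the spectrins Sptbn1 (-0.59) and Sptan1 (-0.59) moved the same way, and the nuclear RNA Malat1 (-1.10), next to Map1b in abundance, is described with other nuclear RNAs below. The falls of Dst and the spectrins were not called under every scaling. Sptbn1 (-0.31, adjusted p = 0.19) and Sptan1 (-0.31, adjusted p = 0.195) did not pass under library totals, and Dst did not pass once the exon length and GC trend was removed (-0.14, adjusted p = 0.362). On the other side, Mbp, the myelin basic protein, was at 876, 956 and 1076 CPM in vehicle and 1645, 1455 and 1273 CPM in cisplatin (log2 fold change 0.59, SE 0.11, adjusted p = 0.00137). Prx, the Schwann cell protein periaxin, was at 260.1, 308 and 336 CPM in vehicle and 502, 459 and 404 CPM in cisplatin (log2 fold change 0.60, SE 0.10, adjusted p = 0.00062). Ptgds, the prostaglandin D synthase of the meninges, was at 97.2, 99.9 and 84.9 CPM in vehicle and 390.4, 173 and 197 CPM in cisplatin (log2 fold change 1.43, SE 0.26, adjusted p = 0.00123). Cisplatin library 1 was the highest in all 3, and for Ptgds it was far above the other cisplatin libraries, all of which exceeded vehicle. Fn1, fibronectin (0.70), Col6a1 (0.64), Igfbp6 (0.64), the myeloid lysozyme Lyz2 (1.05) and Hbb-bs (1.89) were the other abundant genes that rose at least 1.5-fold.

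Genes of the neuronal membrane and synapse were lower in cisplatin. Here and below a list's count and median cover its tested members. Listed genes with too few reads were left out (14 of 70 replication histones, 6 of 16 B lineage genes and 6 of 11 bone and cartilage genes, among others), and a scarce gene could be tested through the group where it is high. Of 52 tested adhesion molecules that hold synapses and axons together, 41 held lower and 2 higher, with a median log2 fold change of -0.51 against 0.00 for all genes tested (-0.23 under library totals). Slitrk4 was at 101, 91.5 and 82.7 CPM in vehicle and 50.8, 47.1 and 53 CPM in cisplatin (log2 fold change -0.87, SE 0.09, adjusted p = 4.12e-05). Cadm2 (-0.94) and Slitrk3 (-0.86) fell too, and 17 of the 41 held under every scaling. Of 124 voltage-gated and potassium channel genes, which set how readily a neuron fires, 63 held lower and 5 higher (median -0.34, -0.05 under library totals). Cacna1a, the pore of the P/Q-type calcium channel, was at 131, 117 and 136 CPM in vehicle and 52.3, 48.6 and 62.7 CPM in cisplatin (log2 fold change -1.23, SE 0.12, adjusted p = 3.16e-05). Kcnma1 (-1.05), the calcium-activated BK channel, and Kcnd1 (-0.84), an A-type channel, held lower as well, and 25 of the 63 did so under every scaling. The 5 channel genes that held higher were chosen for naming after their values were seen: Kcne3 (0.71), Kcnj8 (0.71), Kcnj13 (0.70), Scn2b (0.32) and Kcnip2 (0.25). Of these, Kcnj8 encodes the pore of the potassium channel of pericytes, and which cells the 5 rises came from was not tested.

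Receptors for fast transmitters showed the same direction. Of 42 glutamate, GABA and glycine receptor genes 20 held lower and 0 higher (median -0.37, -0.07 under library totals). The kainate receptor subunit Grik2 was at 29.4, 27.5 and 29.2 CPM in vehicle and 15.4, 17.7 and 18.1 CPM in cisplatin (log2 fold change -0.75, SE 0.07, adjusted p = 2.6e-05). The groups did not overlap. Grik5 (-0.80) and the AMPA receptor subunit Gria3 (-0.73) also fell. Under every scaling 4 of the 20 held, 9.52% of the list against 4.72% of all genes. Of 49 presynaptic release genes 22 held lower and 2 higher, with a median of -0.22 with TMM scaling and 0.05 with library totals. Vamp2, the vesicle SNARE protein synaptobrevin, was at 172, 156 and 147 CPM in vehicle and 62.3, 71.4 and 79.4 CPM in cisplatin (log2 fold change -1.16, SE 0.10, adjusted p = 1.58e-05). Beside it stood the falls of Pclo and Syn1 given above, and 8 of the 22 held under every scaling. Axon guidance genes, 67 in number, held lower in 31 cases (46.3%) and higher in 8 (11.9%), against 20.6 and 14.8% of all genes. Their median was -0.21, turning to 0.08 under library totals. Under every scaling 11 held lower (16.4%) and 6 higher (8.96%), against 4.72 and 7.95% of all genes. Efna5, a membrane-bound ephrin ligand, was at 30.4, 25.6 and 27.9 CPM in vehicle and 12.8, 13.1 and 14.2 CPM in cisplatin (log2 fold change -1.07, SE 0.11, adjusted p = 3.76e-05). Sema5a (-0.76) and Sema4d (-0.70) are semaphorins that fell. Of the 8 that held higher only Robo4 (0.66), Ephb4 (0.46) and Ntn1 (0.68) are named here, picked after their values were seen. Which cells these rises came from was not tested.

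The lower levels of membrane genes were not matched by an even change in the neuron's other genes. Among the 20 general neuron markers 5 held lower (25%) and 1 higher (5%), against 20.6 and 14.8% of all genes, with a median of -0.14 with TMM scaling and 0.15 with library totals. Map2, a microtubule protein of dendrites, was at 376, 299 and 334 CPM in vehicle and 170.4, 165 and 204 CPM in cisplatin (log2 fold change -0.90, SE 0.11, adjusted p = 0.000112), and it held under every scaling. Rbfox3, which encodes the neuronal nuclear antigen NeuN, was at 109, 116 and 118 CPM in vehicle and 79.1, 83.8 and 95.5 CPM in cisplatin (log2 fold change -0.41, SE 0.07, adjusted p = 0.000725) but did not pass under library totals (-0.12, adjusted p = 0.551). Gap43, a growth cone protein, was at 97, 109 and 100 CPM in vehicle and 127, 127 and 135 CPM in cisplatin (log2 fold change 0.35, SE 0.05, adjusted p = 0.000476). So Map2 and Gap43, both neuronal, moved in opposite directions with no overlap between groups in either. Of 19 neuropeptide genes 5 held higher (26.3%, against 14.8% of all genes) and 0 lower. Their median was 0.23, and 0.02 once the exon length and GC trend was removed, against 0.01 for all genes. Only 2 of the 5 held under every scaling, 10.5% of the list against 7.95% of all genes. Nmb (0.30) did not pass after trend removal (0.01, adjusted p = 0.928). Calca, which encodes the nociceptor peptide CGRP, was at 1248, 1294 and 1222 CPM in vehicle and 1718, 1608 and 1578 CPM in cisplatin (log2 fold change 0.38, SE 0.08, adjusted p = 0.00331). Tac1, the precursor of substance P, had a log2 fold change of 0.24 that was no longer called once vehicle library 3 was left out (adjusted p = 0.0659) or without cisplatin library 1 (adjusted p = 0.0766). Neurofilaments and tubulins split, with 3 of 21 higher and 3 lower (14.3% each way, near or under the shares of all genes, median 0.06). Tubb4a, a beta tubulin of neurons, was at 326, 279 and 272 CPM in vehicle and 97.8, 103 and 131 CPM in cisplatin (log2 fold change -1.40, SE 0.12, adjusted p = 1.71e-05), the largest fall of that family. Nefm, the medium neurofilament chain (-0.59), did not pass under library totals (-0.29, adjusted p = 0.215). Transport motors were also mixed, with 10 of 60 kinesin, dynein and dynactin genes higher (16.7%) and 14 lower (23.3%). Both shares were near those of all genes (median 0.01). Kif2a, a kinesin that takes microtubules apart, was at -1.13.

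The axon degeneration pathway, in which the kinase DLK and the NADase Sarm1 carry an injury signal that destroys the axon, had 12 of 24 members held lower and 1 higher (median -0.18, turning to 0.11 under library totals). Mycbp2, the PHR1 ubiquitin ligase that clears the survival factor Nmnat2, was at 695, 583 and 641 CPM in vehicle and 283, 303 and 353 CPM in cisplatin (log2 fold change -1.03, SE 0.12, adjusted p = 7.92e-05). Map3k13, the kinase LZK and a relative of DLK, was at 24, 19 and 23.5 CPM in vehicle and 10.6, 12 and 13.9 CPM in cisplatin (log2 fold change -0.88, SE 0.12, adjusted p = 0.000175). Only these 2 members held lower under every scaling (8.33% of the list, against 4.72% of all genes). Mapk8, the kinase JNK1, fell by 0.36 on the log2 scale but was at 0.04 (adjusted p = 0.548) once the exon length and GC trend was removed.

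**Figure D3:**
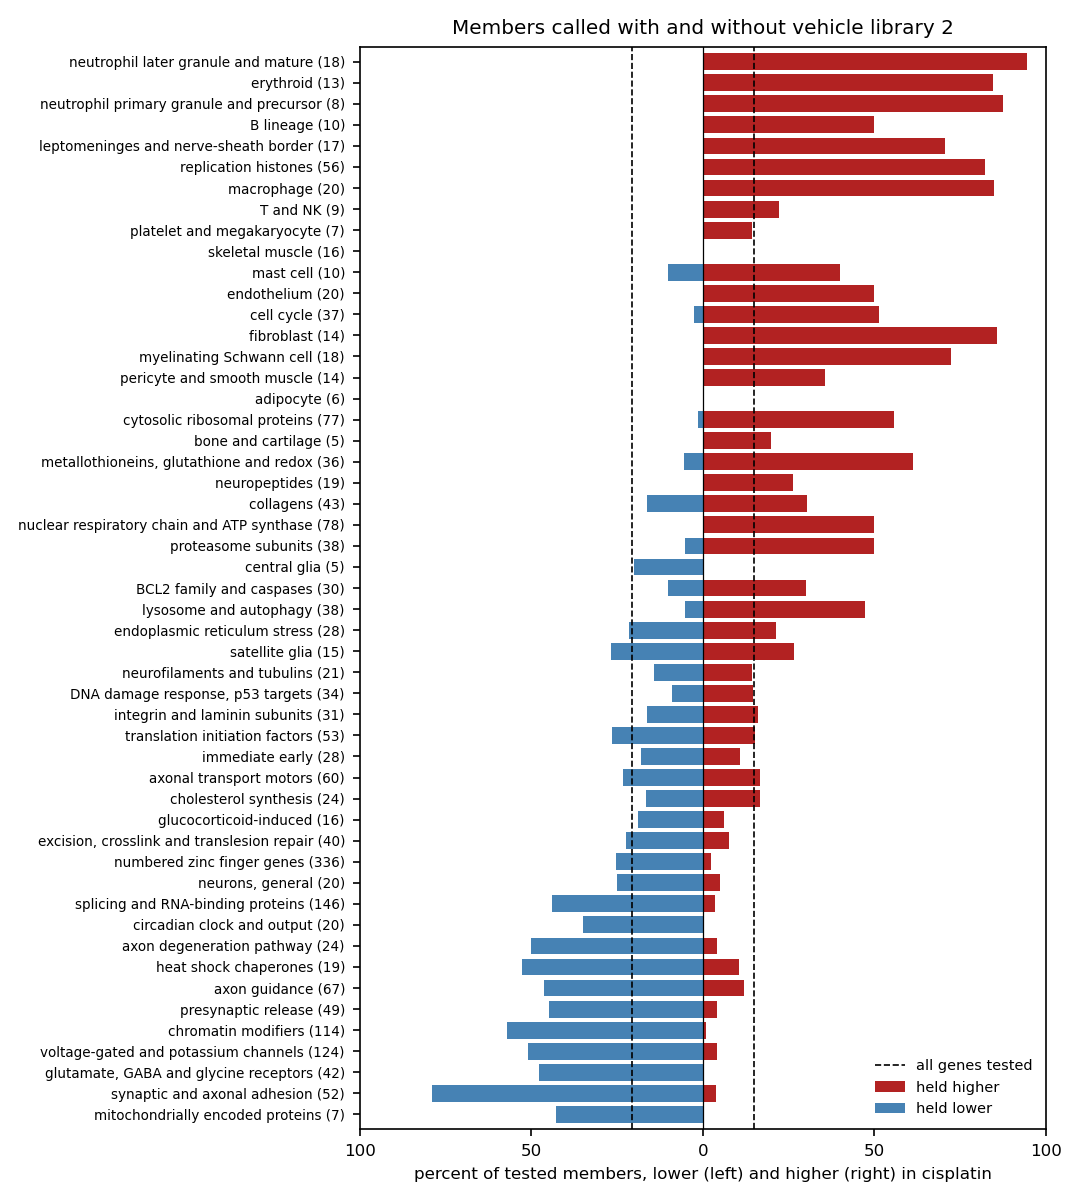
For each of 51 gene lists (number of tested members in brackets), bars give the percent of members that held higher (red, right) or lower (blue, left) in cisplatin, ordered by the list's median log2 fold change. The dashed lines mark all genes tested, 14.8% higher and 20.6% lower. Adhesion, channel, chromatin and presynaptic lists extend far to the left, and granulocyte, erythroid, histone, macrophage and fibroblast lists far to the right.

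Many regulators of chromatin and RNA processing were lower. Of 114 genes encoding chromatin modifiers, which write, read or erase marks on histones and DNA or move nucleosomes, 65 held lower and 1 higher, with a median of -0.26 with TMM scaling and 0.03 with library totals. Ep300, a histone acetyltransferase, was at 68.1, 54.6 and 59.8 CPM in vehicle and 30.5, 28.9 and 31.2 CPM in cisplatin (log2 fold change -1.02, SE 0.09, adjusted p = 1.71e-05). Its cisplatin values lay in a narrow band well under all vehicle values, and 21 of the 65 held under every scaling. Splicing and RNA-binding genes held lower in 64 of 146 cases and higher in 5 (median -0.15, 0.14 under library totals), 15 of the 64 under every scaling. Luc7l2, a component of the U1 snRNP, was at 143, 130.2 and 129 CPM in vehicle and 73.8, 69.5 and 68.9 CPM in cisplatin (log2 fold change -0.92, SE 0.06, adjusted p = 5.38e-06). Srrm1 (-1.05), a splicing coactivator, and Rbm26 (-0.78) followed. Numbered zinc finger genes, the largest list with 336 tested, held lower in 85 and higher in 8 (median -0.12, 0.17 under library totals), a share of 25.3% lower that is near the 20.6% of all genes. Under every scaling 12 of them held lower (3.57%) and 7 higher, against 4.72% lower and 7.95% higher of all genes.

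Malat1 and Snhg11 fell, while long non-coding RNAs as a class did not stand out: of 300 tested genes annotated as lincRNA 47 held lower (15.7%) and 16 higher, against 20.6 and 14.8% of all genes, with a median of -0.07. Malat1 (chromosome 19, 5795690 to 5802672), a nuclear speckle RNA, was at 7383, 6916 and 8205 CPM in vehicle and 3583, 3557 and 3334 CPM in cisplatin (log2 fold change -1.10, SE 0.09, adjusted p = 1.57e-05). Snhg11, a host of small nucleolar RNAs, was at 446, 425 and 452 CPM in vehicle and 136, 132 and 139.9 CPM in cisplatin (log2 fold change -1.70, SE 0.06, adjusted p = 1.8e-08). Its 3 values in each group lay within a few percent of their mean, and the fall was over 3-fold. The further nuclear RNAs named here were chosen after values were seen. Miat was at 178, 185 and 240.1 CPM in vehicle and 70.4, 77.6 and 86.9 CPM in cisplatin (log2 fold change -1.36, SE 0.11, adjusted p = 1.16e-05). Neat1, the scaffold of paraspeckles, was at 169, 154 and 142 CPM in vehicle and 126, 119 and 103 CPM in cisplatin (log2 fold change -0.42, SE 0.08, adjusted p = 0.00136) but did not hold under every scaling (-0.12 under library totals, 0.10 after trend removal). Airn (-0.09, adjusted p = 0.556) and Gm26917 (0.16, adjusted p = 0.575) did not pass.

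Meg3 is part of the imprinted interval between Dlk1 and Dio3 on chromosome 12 (109452823 to 110281097, GRCm38), where the maternal chromosome makes a long run of non-coding RNA holding Meg3, Rian and Mirg with many small nucleolar RNAs and microRNAs inside it. The interval was chosen after the values of Meg3 and its neighbours were seen, so its counts are a description. Of 91 listed genes there 19 were tested, 16 held lower, 0 higher and 3 did not hold (Dlk1, Rtl1 and Mir541). The remaining genes had too few reads to be tested, and a scarce gene could pass that filter through the vehicle libraries alone, so the count does not describe the whole interval. Meg3 was at 533, 513 and 730.3 CPM in vehicle and 152, 172 and 213 CPM in cisplatin (log2 fold change -1.73, SE 0.14, adjusted p = 1.43e-05). Mirg was at 34.3, 34.8 and 36.2 CPM in vehicle and 9.66, 12.2 and 15.8 CPM in cisplatin (log2 fold change -1.48, SE 0.13, adjusted p = 1.71e-05). Rian was at 394, 381 and 392 CPM in vehicle and 244, 248 and 245 CPM in cisplatin (log2 fold change -0.66, SE 0.05, adjusted p = 9.44e-06). The 3 long RNAs thus fell by different amounts, and the fall of Rian was -0.01 once the exon length and GC trend was removed. The intergenic RNAs Gm26945 (-2.72) and B830012L14Rik (-2.65) fell further than Meg3, while the protein-coding Dlk1 (0.17, adjusted p = 0.69) and Rtl1 (0.26, adjusted p = 0.692), did not pass. Both were scarce: Dlk1 was under 1 CPM in all 3 vehicle libraries and at 0.688, 1.28 and 0.931 CPM in cisplatin (SE 0.30), and Rtl1, at 0.225, 0.0626 and 0.358 CPM in vehicle and 0.315, 0.338 and 0.213 CPM in cisplatin (SE 0.47), was under the detection floor in vehicle library 2. Of the 16 genes 8 held lower under every scaling. The small nucleolar RNA gene Gm24564 had the lowest fitted value (-3.80), which is no bound, since it was at 0.900, 0.501 and 0.845 CPM in vehicle and at 0.0287, 0.0482 and 0.0798 CPM, near or under the detection floor, in cisplatin. Small RNA loci can hold reads of their host transcript, so their counts are not separate measurements of the mature small RNAs.

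**Figure D4:**
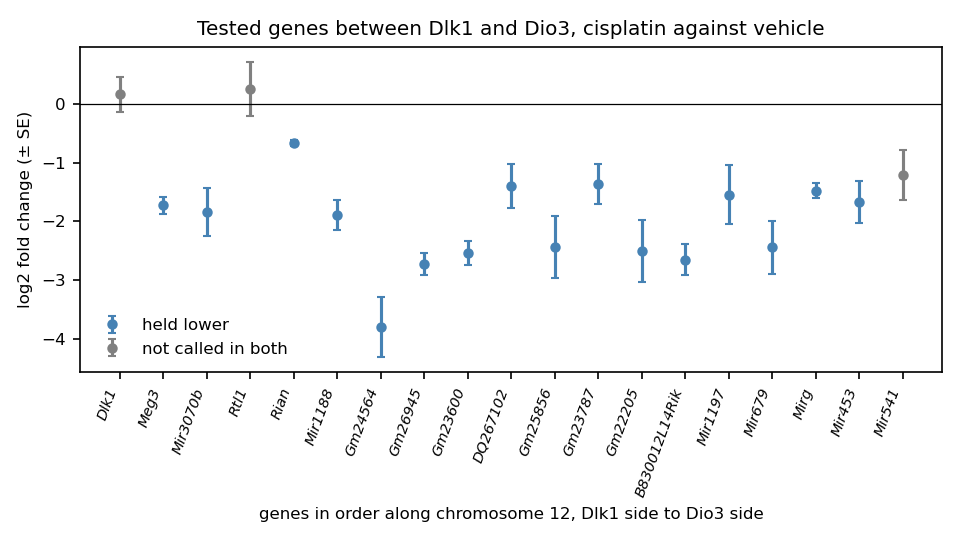
Log2 fold change (cisplatin against vehicle, error bars 1 SE) of the 19 tested genes between Dlk1 and Dio3 in their order along chromosome 12. The 16 genes that held lower (blue) lie between -3.80 and -0.66, and of the 3 that did not hold (grey) Dlk1 and Rtl1 lie near 0 and Mir541 at -1.20.

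Direction followed gene length. Tested genes with an annotated length were put into 5 equal groups by the summed length of their exons. Among the shortest (56 to 1996 bases) 24.8% held higher and 3.41% lower, with a median log2 fold change of 0.18. In the next 3 groups 21.7, 14.5 and 8.99% held higher and 6.77, 13.6 and 27.5% held lower. Among the longest (7163 to 123179 bases) 4.44% held higher and 52.0% lower, with a median of -0.25. Vehicle libraries had more reads outside genes, as given above, and the part of that difference in the length trend was not tested. The falls of the channel, adhesion, chromatin and giant cytoskeletal genes lie on the long side of this trend and the rises of the ribosomal and respiratory genes below on the short side, so counts under every scaling, which include a fit with the trend removed, are given beside most of these lists.

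**Figure D5:**
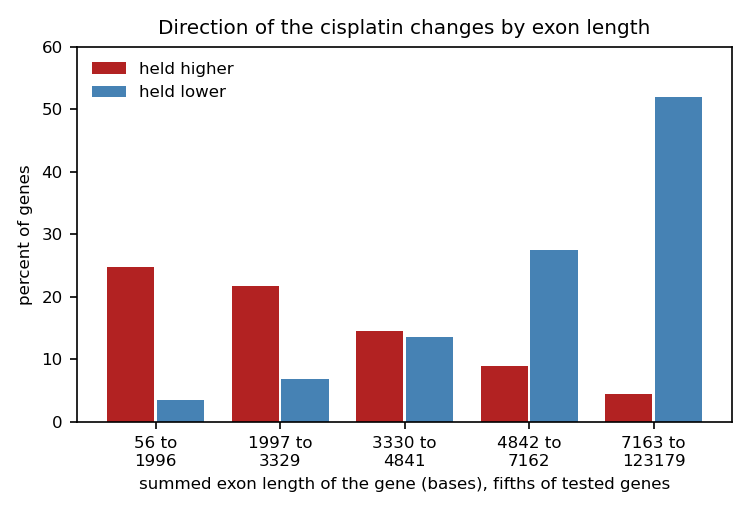
Percent of genes that held higher (red) or lower (blue) in cisplatin in 5 equal groups of tested genes by summed exon length in bases. The share that held higher falls from 24.8% to 4.44% and the share that held lower rises from 3.41% to 52.0% from the shortest to the longest genes.

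Ribosomal protein, respiratory chain and proteasome genes were modestly higher with TMM scaling. Of 77 cytosolic ribosomal protein genes 43 held higher and 1 lower, with a median of 0.27 (0.11 after trend removal), and 20 of the 43 held under every scaling. Rps4x was at 49.9, 52.1 and 49.2 CPM in vehicle and 68.3, 69.6 and 64.9 CPM in cisplatin (log2 fold change 0.43, SE 0.05, adjusted p = 9.09e-05). Rps28 (0.49) rose by a like amount. Ribosomal protein genes have many processed copies, so their counts are uncertain. Of 78 nuclear genes for the respiratory chain and ATP synthase 39 held higher and 0 lower. Their median was 0.18, but 0.01 after trend removal, no higher than the 0.01 of all genes. Under every scaling 10 held, 12.8% of the list against 7.95% of all genes. Ndufv3, a subunit of complex I, was at 76.1, 79.6 and 77.8 CPM in vehicle and 99.9, 99.8 and 100.3 CPM in cisplatin (log2 fold change 0.36, SE 0.04, adjusted p = 0.000109). The 3 values in each group were close together, so that a small rise passed. Cox6a1 (0.41) and Cox5b (0.33), subunits of cytochrome oxidase, were higher too. Proteasome subunits held higher in 19 of 38 cases and lower in 2 (median 0.16, 0.03 after trend removal, 7 held higher under every scaling). Psmb9, a subunit of the immunoproteasome, was at 2.06, 3.26 and 1.98 CPM in vehicle and 4.16, 4.82 and 3.91 CPM in cisplatin (log2 fold change 0.88, SE 0.17, adjusted p = 0.00179), while Psmd11 (-0.60) of the regulatory particle fell and did not pass under library totals (-0.32, adjusted p = 0.0731).

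Of 7 tested mitochondrially encoded protein genes 3 held lower, 1 of them under every scaling, and 0 higher, and 1 (mt-Nd1) was called higher without vehicle library 2. The list summed to 6386, 7379 and 7876 CPM in vehicle and 8034, 7139 and 7423 CPM in cisplatin, so the sums overlapped between groups. The members' median was -0.58 with vehicle library 2 and -0.14 without it. The complex I subunit mt-Nd5 was at 170, 281 and 254 CPM in vehicle and 145, 119.9 and 129 CPM in cisplatin (log2 fold change -0.84, SE 0.14, adjusted p = 0.000833), and its fall was -0.67 without vehicle library 2. mt-Nd2 (-0.61) and mt-Nd4 (-0.58) did not pass under library totals (adjusted p = 0.125 and 0.168). The genes mt-Co2, mt-Co3, mt-Atp8 and mt-Nd4l were listed at 0 reads in these 6 libraries, so the list is incomplete. Translation initiation factors were mixed, with 8 of 53 higher (15.1%) and 14 lower (26.4%), against 14.8 and 20.6% of all genes (median 0.01). Eif1, which helps choose the start codon, was at 69.9, 70.4 and 58.8 CPM in vehicle and 33.3, 34.9 and 39.1 CPM in cisplatin (log2 fold change -0.89, SE 0.08, adjusted p = 1.76e-05), and it and the scaffold Eif4g3 (-0.99) held lower under every scaling.

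Redox and lysosomal genes leaned higher. Of 36 metallothionein, glutathione and redox genes, whose thiols can bind platinum, 22 held higher and 2 lower (median 0.24, 0.10 after trend removal). Under every scaling 4 of the 22 held, 11.1% of the list against 7.95% of all genes. Prdx6, a peroxidase, was at 70.3, 70.8 and 74.4 CPM in vehicle and 89.6, 85.7 and 88 CPM in cisplatin (log2 fold change 0.29, SE 0.04, adjusted p = 0.000434). The 2 that held lower were Gclm (-0.40) and Gclc (-0.29), the subunits of the enzyme that limits glutathione synthesis, and neither passed under library totals (-0.10, adjusted p = 0.614, and 0.01, adjusted p = 0.978). Lysosome and autophagy genes held higher in 18 of 38 cases and lower in 2 (median 0.13). Ctsh, a cathepsin, was at 9.11, 9.52 and 7.96 CPM in vehicle and 18.6, 16.8 and 12 CPM in cisplatin (log2 fold change 0.84, SE 0.14, adjusted p = 0.000737). Laptm4a (0.39) rose and Tpp1 (-0.43) fell, the latter without passing under library totals (-0.13, adjusted p = 0.486).

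Genes that answer DNA damage did not move as a group. Of 34 targets of the damage sensor p53, 5 held higher (14.7%, against 14.8% of all genes) and 3 lower (8.82%, against 20.6%), and the median was 0.05. Zmat3, an RNA-binding p53 target, was at 128, 101 and 126 CPM in vehicle and 54.1, 56.8 and 66.3 CPM in cisplatin (log2 fold change -1.0, SE 0.12, adjusted p = 0.000105). Plk2, a stress-induced kinase, was at 44.6, 41.3 and 41.9 CPM in vehicle and 54.4, 54.4 and 51.2 CPM in cisplatin (log2 fold change 0.32, SE 0.05, adjusted p = 0.00072). These 2 genes moved in opposite directions without overlap between the groups. Mdm2, the ubiquitin ligase that holds p53 down, had a log2 fold change of -0.22 that was 0.07 under library totals (adjusted p = 0.734) and was no longer called once vehicle library 1 was left out (adjusted p = 0.0664). In the repair list, genes of excision, crosslink and translesion repair that act on platinum lesions, 3 of 40 held higher (7.50%) and 9 lower (22.5%, near the share of all genes; median -0.06, 0.23 under library totals). Rev3l, the catalytic subunit of translesion polymerase zeta, was at 87.3, 72 and 75.8 CPM in vehicle and 47.1, 47.2 and 52.8 CPM in cisplatin (log2 fold change -0.68, SE 0.08, adjusted p = 7.23e-05), and with the damage kinase Atm (-0.68) it held lower under every scaling. Brca2 (-0.68) did not pass after trend removal (-0.25, adjusted p = 0.0773). BCL2 family and caspase genes held higher in 9 of 30 cases (30.0%), 5 of them under every scaling, and lower in 3 (10.0%; median 0.14), and the BH3-only gene Bmf, which promotes cell death, was at 6.56, 7.08 and 7.64 CPM in vehicle and 9.61, 9.40 and 8.32 CPM in cisplatin (log2 fold change 0.36, SE 0.09, adjusted p = 0.00714). Xiap, which inhibits caspases, changed by -0.45 and passed neither under library totals (-0.15, adjusted p = 0.439) nor after trend removal (-0.06, adjusted p = 0.272).

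Of 19 tested heat shock chaperones 10 held lower (52.6%, against 20.6% of all genes) and 2 higher, with a median of -0.20 with TMM scaling and 0.09 with library totals, and 3 of the 10 held lower under every scaling. Hsph1, a large heat shock protein of the HSP110 family, was at 320.2, 309 and 290.5 CPM in vehicle and 156, 159 and 196 CPM in cisplatin (log2 fold change -0.84, SE 0.08, adjusted p = 3.2e-05). Bag3, a cochaperone of selective autophagy, was at 153, 147 and 140 CPM in vehicle and 71.8, 74.9 and 91.3 CPM in cisplatin (log2 fold change -0.88, SE 0.09, adjusted p = 3.09e-05). Both held under every scaling, and in both cisplatin library 3 was the closest to vehicle. Hspa4l (-0.42), a relative of Hsph1, did not pass under library totals (-0.13, adjusted p = 0.532) or after trend removal (-0.00, adjusted p = 0.999). Endoplasmic reticulum stress genes were even, 6 higher and 6 lower of 28 (21.4% each way, the lower share near that of all genes), and the largest of their changes was in Syvn1, a ubiquitin ligase that disposes of misfolded proteins, at 34.6, 32.9 and 33.3 CPM in vehicle and 15.5, 15.1 and 18.1 CPM in cisplatin (log2 fold change -1.05, SE 0.08, adjusted p = 1.1e-05). Among 20 clock genes 7 held lower (35.0%), 2 of them under every scaling, and 0 higher (median -0.17, 0.11 under library totals). The clock repressor Per1 was at 22.9, 15.4 and 18.2 CPM in vehicle and 8.43, 8.85 and 9.94 CPM in cisplatin (log2 fold change -1.06, SE 0.15, adjusted p = 0.000262). Per1 is also induced by glucocorticoids, and of 16 such genes 3 held lower (18.8%) and 1 higher (6.25%), close to or under the 20.6 and 14.8% of all genes. The hour of dissection is not given in the labels. Immediate early genes held lower in 5 (17.9%) and higher in 3 (10.7%) of 28, with Nr4a3 the lowest at 3.22, 1.88 and 1.33 CPM in vehicle and 0.717, 0.530 and 0.425 CPM in cisplatin (log2 fold change -1.95, SE 0.38, adjusted p = 0.00199), and Jun (-0.29) did not pass under library totals (-0.00, adjusted p = 0.987). Cholesterol synthesis genes were even as well, with 4 of 24 higher and 4 lower (16.7% each way) and Dhcr7, the enzyme of the last step, at -0.74.

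Replication histone genes rose as a family. These genes lie in clusters, lack introns and are made in bulk when a cell copies its DNA. Of 56 tested 46 held higher and 0 lower, 35 of them under every scaling, and the median was 0.84. All 5 linker histone H1 genes held higher, as did 10 of 13 H2A, 12 of 16 H2B, 9 of 11 H3 and 10 of 11 H4 genes. Members of a family are near copies of each other, so the counts of single genes are uncertain. Hist1h1e also overlaps Hist1h2be on the same strand in the annotation. The promoters of the 3 members with the smallest p are shown because genes of this family moved together, and they carry the short elements known from histone promoters. They are the 250 bases before the start of transcription from RefSeq (GRCm38.p6), with matches to CCAAT and, in the H1 genes, to the H1 box AAACACA or, in the H2B gene, to the octamer ATTTGCAT in capitals. These lie at chr13:23554782-23555031 on the plus strand, chr13:23622559-23622808 on the minus strand and chr3:96269450-96269699 on the plus strand.
Hist1h1d: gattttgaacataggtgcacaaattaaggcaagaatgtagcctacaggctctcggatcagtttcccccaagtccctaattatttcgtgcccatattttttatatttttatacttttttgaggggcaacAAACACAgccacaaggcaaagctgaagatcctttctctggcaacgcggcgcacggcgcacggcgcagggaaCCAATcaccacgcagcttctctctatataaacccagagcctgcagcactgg
Hist1h1e: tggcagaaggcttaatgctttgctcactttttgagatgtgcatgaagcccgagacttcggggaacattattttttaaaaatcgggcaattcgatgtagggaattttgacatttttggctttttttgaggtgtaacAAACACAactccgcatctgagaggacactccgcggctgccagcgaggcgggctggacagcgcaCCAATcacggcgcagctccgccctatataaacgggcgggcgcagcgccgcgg
Hist2h2bb: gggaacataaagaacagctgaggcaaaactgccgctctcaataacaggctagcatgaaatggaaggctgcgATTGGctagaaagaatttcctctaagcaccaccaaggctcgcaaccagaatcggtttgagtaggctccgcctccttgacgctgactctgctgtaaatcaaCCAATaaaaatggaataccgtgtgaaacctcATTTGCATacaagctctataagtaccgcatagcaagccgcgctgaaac

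The 2 H1 promoters share the same layout. The CCAAT match begins 51 bases before the start in Hist1h1d and 52 in Hist1h1e, and the H1 box 122 and 115 bases before it. In Hist2h2bb the octamer begins 48 bases before the start and the nearer CCAAT 79, with a reverse match (ATTGG) at 179. Each motif was searched on both strands, and none of them contains another. Of the 56 tested histone genes 50 had a promoter in the RefSeq table. CCAAT was present in 42 of these (84%), against 33.85% of all 32851 promoters of that length, and in 3 of 10 H4 promoters. The H1 box was present in 4 of 5 H1 promoters against 6.25% of all, and the octamer in 5 of 13 H2B and 6 of 13 H2A promoters against 1.60% of all. A match is a run of letters and not evidence that a factor binds there.

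In counts, Hist1h1e was at 30.6, 35.1 and 33.8 CPM in vehicle and 50.8, 49.3 and 45.5 CPM in cisplatin (log2 fold change 0.55, SE 0.08, adjusted p = 0.000204). Hist1h1d was at 8.66, 12.3 and 10.4 CPM in vehicle and 19.6, 18.9 and 16.1 CPM in cisplatin (log2 fold change 0.82, SE 0.12, adjusted p = 0.000268). Hist2h2bb was at 16.3, 18.4 and 15.1 CPM in vehicle and 26.9, 27.1 and 23.5 CPM in cisplatin (log2 fold change 0.65, SE 0.09, adjusted p = 0.000286). None of the 3 overlapped between groups, and cisplatin library 3 was the lowest of the cisplatin libraries in each. Other cell cycle genes rose with them: 19 of 37 held higher and 1 lower (median 0.46), 16 of the 19 under every scaling. Top2a, the topoisomerase of dividing cells, was at 5.21, 6.14 and 5.20 CPM in vehicle and 12.1, 10.2 and 9.73 CPM in cisplatin (log2 fold change 0.97, SE 0.12, adjusted p = 0.000133). Bub1 (0.99), of the spindle checkpoint, and cyclin A2, Ccna2 (0.88), rose by about as much. The histone list summed to 410.3, 506 and 415 CPM in vehicle and 657, 637 and 576 CPM in cisplatin, and the cell cycle list to 156, 171 and 156 and 213, 199 and 199 CPM. Neurons of the adult ganglion do not divide. Markers of blood-forming lineages moved with these genes, as given next, and their part in the rise was not tested.

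Granulocyte and red cell genes rose most of all the lists. Neutrophils make their primary granules as early precursors and their later granules as they mature. Of 8 primary granule and precursor genes 7 held higher and 0 lower (median 1.61), and of 18 later granule and mature genes 17 held higher (median 1.70), all 17 under every scaling. Mpo, the myeloperoxidase of primary granules, was at 1.76, 3.07 and 1.33 CPM in vehicle and 6.19, 5.62 and 5.69 CPM in cisplatin (log2 fold change 1.60, SE 0.29, adjusted p = 0.00108). Ltf, the lactoferrin of later granules, was at 9.37, 13.6 and 7.35 CPM in vehicle and 40, 34.8 and 26.9 CPM in cisplatin (log2 fold change 1.79, SE 0.26, adjusted p = 0.000305). In both genes every cisplatin library exceeded every vehicle library, and vehicle library 2 was again the highest in vehicle. The later list summed to 69.2, 124 and 53.3 CPM in vehicle and 322, 286 and 202 CPM in cisplatin, and the primary list to 11.2, 16.1 and 10.2 and 23.6, 22.9 and 20.4 CPM. Among 13 erythroid genes 11 held higher and 0 lower, all 11 under every scaling (median 1.62). Hbb-bs, the main adult beta globin, was at 24, 29.3 and 26.6 CPM in vehicle and 125, 111 and 56.7 CPM in cisplatin (log2 fold change 1.89, SE 0.33, adjusted p = 0.00103). The list summed to 44, 63.9 and 51.4 CPM in vehicle and 231, 211 and 108 CPM in cisplatin, with cisplatin library 3 nearest to vehicle. The globin genes are near copies of each other, so counts of the single genes are uncertain. Whether blood or marrow in the dissected tissue had a part in these values was not tested.

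The lists of other immune lineages gave unequal counts, against 14.8% of all genes that held higher. Macrophage markers held higher in 17 of 20 cases and lower in 0, 16 of the 17 under every scaling (median 0.73). Tyrobp, a signalling adaptor of myeloid cells, was at 4.16, 4.82 and 3.74 CPM in vehicle and 10.8, 9.09 and 7.15 CPM in cisplatin (log2 fold change 1.11, SE 0.15, adjusted p = 0.0002). C1qb (0.70), of complement, and Ptprc (0.75), the leukocyte phosphatase CD45, rose too, and the list summed to 189, 257 and 196 CPM in vehicle and 393, 371 and 299 CPM in cisplatin. Of 10 B lineage genes 5 held higher (median 0.88), but only 2 under every scaling (20% of the list, against 7.95% of all genes). Vpreb2 had no read in these libraries. Cd79a, of the B cell receptor, was under 1 CPM in every library (1.36, adjusted p = 0.0165, and 0.0783 without vehicle library 1). T and NK genes (median 0.70) held higher in 2 of 9 cases, Klrd1 and Nkg7. Neither was called once vehicle library 3 was left out (adjusted p = 0.144 and 0.0907) or without cisplatin library 1 (0.0532 and 0.059). That list summed to 2.59, 4.07 and 2.99 CPM in vehicle and 5.22, 4.75 and 4.55 CPM in cisplatin. Among 10 mast cell genes 4 held higher, 1 of them under every scaling, and 1 lower (median 0.58). The protease Cma1 was at 2.29, 1.63 and 2.08 CPM in vehicle and 5.42, 4.60 and 3.46 CPM in cisplatin (log2 fold change 1.14, SE 0.19, adjusted p = 0.000699), whereas Kit (-0.56), a receptor that neurons also carry, fell and did not pass under library totals (-0.27, adjusted p = 0.13). The mast cell list summed to 121, 109.6 and 100. CPM in vehicle and 83.8, 88.3 and 91.9 CPM in cisplatin, lower in every cisplatin library, and Kit held most of it (106, 93.1 and 86.5 CPM in vehicle and 57.8, 61.5 and 74.1 CPM in cisplatin). Of 7 platelet genes Pf4 alone held higher (1.0), a share of 14.3%, near that of all genes. The median of that list was 0.70, however, and 4 members were called higher without vehicle library 2.

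Vessel, matrix and sheath genes were higher. Endothelial markers held higher in 10 of 20 cases and lower in 0 (median 0.55), 6 of the 10 under every scaling. Plvap, of the diaphragms of permeable capillaries, was at 4.27, 4.70 and 5.30 CPM in vehicle and 10.6, 9.21 and 10.0 CPM in cisplatin (log2 fold change 1.05, SE 0.13, adjusted p = 8.75e-05). Vwf (0.75), the von Willebrand factor, and Eng (0.56) were higher as well. Pericyte and smooth muscle markers held higher in 5 of 14 cases (median 0.37), with Myl9, a myosin light chain, at 12.3, 14 and 14 CPM in vehicle and 28, 24.9 and 22.1 CPM in cisplatin (log2 fold change 0.90, SE 0.09, adjusted p = 4.75e-05). Fibroblast markers held higher in 12 of 14 cases and lower in 0 (median 0.45), 11 of them under every scaling. Col1a1, the main chain of type I collagen, was at 282, 321 and 293 CPM in vehicle and 402, 439 and 412 CPM in cisplatin (log2 fold change 0.49, SE 0.07, adjusted p = 0.000379). Across all 43 collagen genes 13 held higher (30.2%, against 14.8% of all genes) and 7 lower (16.3%, against 20.6%), with a median of 0.19. All 13 rises but only 2 of the 7 falls held under every scaling. Col24a1, a minor fibrillar collagen, had the largest fall among the collagens, at 16.2, 16.5 and 19.9 CPM in vehicle and 6.77, 7.67 and 7.90 CPM in cisplatin (log2 fold change -1.24, SE 0.10, adjusted p = 1.57e-05). Integrin and laminin subunits were even, 5 higher and 5 lower of 31 (16.1% each way, against 14.8% higher and 20.6% lower of all genes).

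Markers of the leptomeninges and the nerve-sheath border, which cover the root where it enters the ganglion, held higher in 12 of 17 cases and lower in 0, all 12 under every scaling (median 0.84). Besides Ptgds, the sulfate transporter Slc13a4 was at 10.6, 12.5 and 10 CPM in vehicle and 22, 19.3 and 17.6 CPM in cisplatin (log2 fold change 0.85, SE 0.12, adjusted p = 0.00025) and the transcription factor Foxd1 at 5.55, 7.70 and 6.01 CPM in vehicle and 12.5, 10.6 and 8.99 CPM in cisplatin (log2 fold change 0.76, SE 0.14, adjusted p = 0.0012). The list summed to 504, 518 and 411 CPM in vehicle and 1047, 696 and 623 CPM in cisplatin, and cisplatin library 1 was well above the rest. How much root and sheath was dissected with each ganglion is not given in the labels, and its part in these values was not tested.

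Myelinating Schwann cell genes were higher, and satellite glia markers went both ways. Of 18 myelinating Schwann cell genes 13 held higher and 0 lower, 12 under every scaling (median 0.37). Besides Mbp and Prx, Pllp, the myelin protein plasmolipin, was at 34.6, 38 and 38.9 CPM in vehicle and 63.3, 58.7 and 46.5 CPM in cisplatin (log2 fold change 0.60, SE 0.10, adjusted p = 0.000563), and Cnp (0.39) rose. The list summed to 4841, 5537 and 5778 CPM in vehicle and 7873, 7252 and 6362 CPM in cisplatin. Of 15 satellite glia markers 4 held higher and 4 lower (26.7% each way, against 14.8% higher and 20.6% lower of all genes, median 0.08). Kcnj10, the Kir4.1 channel through which these cells buffer potassium, was at 63.9, 54.6 and 61.9 CPM in vehicle and 31.5, 31.8 and 43.2 CPM in cisplatin (log2 fold change -0.76, SE 0.11, adjusted p = 0.000288). Ptprz1, a receptor phosphatase, was at 154, 138 and 134 CPM in vehicle and 63.3, 62.4 and 93.6 CPM in cisplatin (log2 fold change -0.96, SE 0.15, adjusted p = 0.000426). Both held lower under every scaling, and the 4 that held higher, named after their values were seen, were Fabp7 (0.32), Entpd2 (0.30), Apoe (0.28) and S100b (0.20), of which Fabp7 alone held under every scaling. The list as a whole summed to 4160.5, 4010.5 and 4419 CPM in vehicle and 4845, 4487 and 4792 CPM in cisplatin, higher in each cisplatin library.

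Markers of tissue outside the ganglion gave few calls. Of 16 skeletal muscle genes 0 held in either direction by edgeR's test, with 1 at an unadjusted p under 0.05 and 1 called by DESeq2 with all 9 libraries. Their median log2 fold change was nevertheless 0.59, and 1.05 without vehicle library 2. Their sum was 38.6, 89.2 and 38.2 CPM in vehicle and 124, 67.5 and 31.4 CPM in cisplatin, so that the groups overlapped. Casq1 (0.84, adjusted p = 0.0811) passed under library totals (1.13, adjusted p = 6.71e-05) and without cisplatin library 3 (1.17, adjusted p = 0.0067). Of 6 adipocyte genes (median 0.31, 0.16 without vehicle library 2) 0 held by edgeR's test, with 1 at an unadjusted p under 0.05 and 0 called by DESeq2. Of 5 tested bone and cartilage genes only Col2a1 held higher (0.27, adjusted p = 0.0433), a call lost without any of 7 single libraries. Of 5 central glia genes Aqp4 held lower (-0.29), and it was at 0.00 under library totals (adjusted p = 0.992).

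The cisplatin libraries were close to the oxaliplatin libraries in most of these genes. In the same fit, 2 of 17348 genes (0.0115%) differed between the drugs, and both had also held higher against vehicle. These were Fam150b, a ligand of the receptor kinases Alk and Ltk (log2 fold change 0.58 against oxaliplatin, adjusted p = 0.0468), and the mast cell and basophil protease Prss34 (2.54, adjusted p = 0.0495). Leaving out any library other than vehicle library 2 brought that count to 0. The median size of the difference between the drugs over the held genes was 0.07 on the log2 scale, with a median SE of 0.08. The later neutrophil list summed to 110, 243 and 226 CPM in oxaliplatin libraries 1 to 3, and the erythroid list to 89.2, 209 and 217 CPM. Oxaliplatin library 1 thus lay below every cisplatin library in both lists, and below vehicle library 2 (124 CPM) in the former. As the 3 vehicle libraries serve both drugs, changes against vehicle are not independent between them, and a p that misses the threshold does not show that the drugs act alike.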

How the data were processed

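The deposited files hold raw counts per gene symbol, and the submitters' processing notes name STAR, SAMtools and HTSeq and the build mm10 (GRCm38). For the authors' counting, the annotation, strand setting and filters used are not given in the sources read. Libraries were stranded total RNA, read as single ends of 75 bases. Rows of reads assigned to no gene (42.8 to 74.5% of recorded reads) were dropped. Symbols were matched to GENCODE M21 directly or through RefSeq synonyms (17134 of 17348 tested genes).

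All 9 libraries were fitted with 1 term per group in edgeR 4.0.16 (R 4.3.3, TMM, filterByExpr, quasi-likelihood F test, Benjamini-Hochberg over all genes tested), and again without vehicle library 2. SE was obtained by dividing each log2 fold change by the root of its F value. The fit with all 9 libraries was also run on simulated counts in which 100 genes changed 1.5-fold and 100 changed 2-fold. It recovered 71 and 88% of them, with 8 false calls. Far fewer genes changed there than were called in the real data, and no length trend was put in. The simulation therefore does not test how the scaling sets the direction of small changes. Alternatives used limma 3.58.1, DESeq2 1.42.0 and mgcv 1.9.3 (trend with exon length and GC content).

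The members and the 51 lists were chosen with earlier results of these data known. Named genes are the 12 largest held changes each way with groups that do not overlap, leaving out predicted-gene symbols and means under 1 CPM. To these come the 8 most abundant each way with at least a 1.5-fold change, and the 3 members of smallest p per list (2 where none held). Some genes that this rule names are not reported here. Lists are described by counts and medians, with no test. Detection floors cover counting error only, since reads carry no molecular identifiers, whereas SEs and intervals of fold changes include the spread between libraries. The half-width of the 95% interval was 0.196 on the log2 scale for the median gene.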

Additional observations from a re-analysis of the deposited data

How the results depend on the processing

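Library totals moved the counts most: 5987 genes were called higher and 917 lower, 746 and 146 at least 2-fold, 5241 and 875 held with and without vehicle library 2, and the groups did not overlap in 8087 and 675. Calls of at least 2-fold were 219 lower with protein-coding genes only, 240 lower after trend removal, and 190 higher and 218 lower at a minimum of 1 CPM in 3 libraries. The count of genes that differed between the drugs was 14 under library totals, 6 without a count filter, 7 in DESeq2, 1 in limma-voom, 1 at the 1 CPM minimum and 0 with a replicate block.

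Leaving out 1 library in turn gave 1787 (without cisplatin 2) to 3401 (without vehicle 2) genes called higher, 2961 to 3908 lower, 197 to 456 higher and 268 to 425 lower at least 2-fold, 1377 to 2794 held higher and 2432 to 3580 held lower, 3720 to 5652 without overlap higher and 4324 to 5444 lower, and 0 to 2 between the drugs. The difference in reads outside genes ranged from -18.4 to -7.66 percentage points.

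Of the 171 named genes 125 kept their direction and side of the threshold under every alternative. Those that changed sign were Aqp4 (0.0020), Gclc (0.0062) and Mdm2 (0.067) under library totals and Homer1 (0.13), Mapk8 (0.037) and Rora (0.0094) after trend removal. The cause was not tested, beyond the upward shift of all genes that library totals bring.

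Replicate numbers did not clearly pair the samples: same-numbered vehicle and cisplatin libraries had correlated deviations of -0.01, 0.06 and 0.12. The last was above the limit of 0.1 set for pairing. Differently numbered libraries gave -0.096 to 0.051, so pairing by number is not excluded. A replicate block gave 2685 genes called higher and 3958 lower, and changed the call of 1 named gene. Depth limits the scarce granulocyte and lymphocyte genes, many of them within a few multiples of the floor.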
